A study of Mus musculus with 12 samples.

Results

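Spiny projection neurons are the output cells of the striatum, the largest nucleus of the basal ganglia in the forebrain. Measured here were 9 genes that mark these cells, chosen by name: Drd1, Drd2, Adora2a, Penk, Pdyn, Tac1, Ppp1r1b, Rgs9 and Syndig1l. All 9 were found among the 43629 Ensembl gene IDs of the count table, and all 9 passed the filter on low counts that left 19145 genes for testing. Poly(A) RNA of mouse forebrain was sequenced in 12 libraries, 3 in each of 4 groups by label: females given the collagen domain, females given PBS, males given the collagen domain and males given PBS. Collagen domain mice had received, as newborns, an injection into the cerebral ventricles of recombinant adeno-associated virus (rAAV) encoding a collagen domain construct, and PBS mice had received phosphate-buffered saline in the same way. All were 3 months old when the brain was taken and a single hemibrain was frozen and pulverised; the labels call the extracted tissue forebrain. No strain, promoter or dose is named in the labels, and no group received the virus without the construct, so virus and construct cannot be told apart. The labels do not say that each library is a separate mouse, so p-values measure the spread between these libraries.

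Striatal projection neurons fall into direct-pathway cells, which express the dopamine receptor gene Drd1 and the peptide precursors Tac1 and Pdyn, and indirect-pathway cells, which express the dopamine receptor gene Drd2, the adenosine receptor gene Adora2a and the peptide precursor Penk. Dopamine raises cyclic AMP signalling through the Drd1 receptor and lowers it through the Drd2 receptor, and the balance of both pathways shapes movement and reward learning. Ppp1r1b encodes a phosphatase inhibitor that protein kinase A switches on, Rgs9 encodes a regulator that shortens signalling by inhibitory G proteins, and Syndig1l encodes a membrane protein related to the synapse protein Syndig1.

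The promoters of both dopamine receptor genes and of Tac1 are shown because the receptors define the 2 cell populations and Tac1 was the member whose level varied most between libraries. RefSeq sequences were at hand for 5 of the 9 members (Drd1, Drd2, Pdyn, Rgs9 and Tac1), in 7 windows of the GRCm38.p6 assembly, and 250 bases upstream of each annotated start were searched. Each sequence is written 5′ to 3′ on the strand of the gene, with capitals marking the motifs found. Drd1 has 2 annotated starts, at chr13:54054781-54055030 and chr13:54055659-54055908, both on the minus strand. The Drd2 window is chr9:49340153-49340402 and the Tac1 window is chr6:7554811-7555060, both on the plus strand.
Drd1 first window: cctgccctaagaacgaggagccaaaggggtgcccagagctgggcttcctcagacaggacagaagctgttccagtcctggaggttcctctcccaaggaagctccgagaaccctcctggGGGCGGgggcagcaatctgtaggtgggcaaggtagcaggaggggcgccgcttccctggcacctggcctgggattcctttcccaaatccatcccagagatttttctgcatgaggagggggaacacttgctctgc
Drd1 second window: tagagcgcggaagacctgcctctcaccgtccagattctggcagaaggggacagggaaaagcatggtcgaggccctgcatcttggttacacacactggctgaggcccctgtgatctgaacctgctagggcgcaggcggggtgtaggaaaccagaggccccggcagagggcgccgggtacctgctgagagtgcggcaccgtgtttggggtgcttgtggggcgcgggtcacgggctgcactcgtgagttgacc
Drd2: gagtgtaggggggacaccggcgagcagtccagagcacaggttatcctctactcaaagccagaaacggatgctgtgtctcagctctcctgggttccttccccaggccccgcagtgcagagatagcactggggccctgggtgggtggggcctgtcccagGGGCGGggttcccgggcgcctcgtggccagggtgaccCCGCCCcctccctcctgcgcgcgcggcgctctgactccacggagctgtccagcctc
Tac1: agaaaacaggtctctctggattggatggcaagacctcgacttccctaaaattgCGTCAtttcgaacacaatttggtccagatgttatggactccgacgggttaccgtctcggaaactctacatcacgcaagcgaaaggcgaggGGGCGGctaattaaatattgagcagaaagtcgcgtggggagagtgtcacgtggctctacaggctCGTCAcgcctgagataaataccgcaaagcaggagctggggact

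Motifs were searched on both strands: the cyclic AMP response element TGACGTCA, its 5-letter partial element TGACG, the AP-1 site TGACTCA, the Sp1 site GGGCGG and the TATA box TATAAA. The full response element contains the partial element, and the capitals CGTCA and CCGCCC are the partial element and the Sp1 site on the opposite strand. Tac1 held 2 partial elements, beginning 197 and 43 bases upstream of its start, and an Sp1 site 107 bases upstream. Drd2 held 2 Sp1 sites, 93 and 56 bases upstream. The first Drd1 window held a single Sp1 site, 133 bases upstream, and the second held none of these motifs. Of all 32817 promoter windows of that length in the table, 17.7% held the partial element, 32.7% the Sp1 site, 12.4% the TATA box, 4.46% the AP-1 site and 1.55% the full response element. No match says only that these letters are not in that window.

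Library totals lay between 39272127 and 52323985 counted reads, and the members had between 552 reads (Drd2) and 8539 reads (Ppp1r1b) in a library. The reads of 5 libraries went against their labels. C1qtnf3, the gene whose collagen domain the series title names, had 22.3 to 107 CPM (reads scaled to library size) in 6 libraries and 0.186 to 0.706 CPM in the other 6, and in 4 libraries this went against the treatment label (collagen domain female 1, collagen domain female 3, PBS female 2 and PBS male 1). Xist and Ddx3y went against the sex label in 4 libraries (collagen domain male 3, collagen domain female 1, PBS male 1 and PBS female 2), 3 of which also went against the treatment label. Groups below follow the labels, so every group name means libraries labelled so, and results are also given without these 5, which leaves 3 collagen domain and 4 PBS libraries.

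The libraries also differed in the tissue they held. The summed level of 28 cerebellum and hindbrain markers was 1511 to 2335 CPM in 5 libraries (collagen domain female 2, collagen domain male 2, PBS female 2, PBS female 3 and PBS male 3) and 801 to 956 CPM in the other 7. These 5 libraries had 58.4 to 149 CPM of Gabra6, a receptor subunit of cerebellar granule cells, and the other 7 had 0 to 0.940 CPM. Among the 28 markers, Itpr1 averaged 611 CPM, Calb1 155 CPM and Pvalb 58.4 CPM in the 7, against 845, 271 and 149 CPM in the 5. The sum in the 7 therefore rests largely on genes read in every library, and is no measure of hindbrain tissue alone. PBS male 1, counted with the 7, had 13.7 CPM of the glycine transporter gene Slc6a5 and 1.75 CPM of Hoxa5, both hindbrain markers, against at most 0.440 CPM of Slc6a5 in the other 6. By label, 2 of 6 collagen domain and 3 of 6 PBS libraries were high in these markers, and without the libraries against a label it was 2 of 3 collagen domain and 2 of 4 PBS libraries. In bulk tissue, fewer cells of a type and less RNA per cell cannot be told apart.

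Set against the length of their exons, the 9 genes kept a wide order of levels. Lengths were summed over the annotated exons of GENCODE M21, since an annotation of the build of the counts was not used here. Penk had the highest level, 98.3 ± 12.4 CPM per kilobase (SD, n = 12), and Ppp1r1b followed with 54.4 ± 8.36. Tac1 had 16.6 ± 4.20 CPM per kilobase, Adora2a 11.7 ± 2.28, Pdyn 11 ± 1.61 and Syndig1l 10.9 ± 1.49. Drd1 had 9.78 ± 2.13 CPM per kilobase, Rgs9 7.62 ± 1.65 and Drd2 6.78 ± 0.846. The ranges over libraries did not overlap between Penk and Ppp1r1b or between Ppp1r1b and Tac1, and from Tac1 downward each gene's range overlapped that of the next. The kit does not keep strand, and annotated genes on other rows share exon bases with 3 members: A830012C17Rik with 233 of 1634 bases of Penk, 1700003D09Rik with 460 of 2928 of Ppp1r1b, and Gm48573 with 177 of 3080 of Syndig1l. The first of these had a mean of 0.0527 CPM and the second 0.498 CPM.

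Each member was read in all 12 libraries, with the receptor genes given first. Drd1, the dopamine receptor gene of direct-pathway neurons, had 38.3, 24.6 and 43.5 CPM in collagen domain females and 42.1, 27.7 and 43.4 CPM in collagen domain males, against 42.5, 31.1 and 23.6 CPM in PBS females and 37.6, 42.2 and 29.2 CPM in PBS males. Both treatments covered nearly the same range, and each of the 4 groups had a library of at most 29.2 CPM. Drd2, the dopamine receptor gene of indirect-pathway neurons and of dopamine neurons themselves, had 16.8, 15.9 and 19.4 CPM in collagen domain females and 20.9, 17.4 and 19.0 CPM in collagen domain males, against 14.3, 18.4 and 14.4 CPM in PBS females and 17.9, 18.6 and 14.4 CPM in PBS males. The 3 lowest Drd2 values were all in PBS libraries, and the treatments overlapped. Adora2a, the adenosine receptor gene of indirect-pathway neurons, had 35.9, 28.6 and 43.3 CPM in collagen domain females and 44.3, 30.2 and 42.8 CPM in collagen domain males, against 37.6, 34.0 and 23.6 CPM in PBS females and 38.0, 43.2 and 28.0 CPM in PBS males. Adora2a was low in the same libraries as Drd1.

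Of the peptide precursors, Penk, which gives the enkephalins, had 148, 137 and 192 CPM in collagen domain females and 167, 146 and 178 CPM in collagen domain males, against 172, 167 and 121 CPM in PBS females and 170, 179 and 152 CPM in PBS males. The highest value of Penk was in collagen domain female 3 and the lowest in PBS female 3. Pdyn, which gives the dynorphins, had 35.5, 24.5 and 37.0 CPM in collagen domain females and 36.1, 26.6 and 37.3 CPM in collagen domain males, against 33.1, 27.5 and 27.6 CPM in PBS females and 31.9, 35.8 and 28.2 CPM in PBS males. Collagen domain libraries held both the highest and the lowest Pdyn. Tac1, which gives substance P, had 63.1, 30.7 and 65.7 CPM in collagen domain females and 57.3, 46.2 and 68.9 CPM in collagen domain males, against 70.7, 45.8 and 33.3 CPM in PBS females and 57.2, 66.0 and 72.1 CPM in PBS males. Tac1 differed 2.35-fold between its highest and lowest library, more than any other member.

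Ppp1r1b had 170, 130 and 186 CPM in collagen domain females and 179, 138 and 187 CPM in collagen domain males, against 178, 149 and 114 CPM in PBS females and 151, 183 and 146 CPM in PBS males. Rgs9 had 53.9, 37.0 and 59.7 CPM in collagen domain females and 61.1, 41.8 and 59.3 CPM in collagen domain males, against 46.6, 45.8 and 34.0 CPM in PBS females and 47.6, 62.8 and 34.7 CPM in PBS males. Both signalling genes had their lowest value in PBS female 3, and their ranges overlapped between treatments. Syndig1l had 34.3, 31.1 and 42.5 CPM in collagen domain females and 39.01, 32.6 and 36.5 CPM in collagen domain males, against 29.5, 30.7 and 24.9 CPM in PBS females and 33.4, 35.9 and 32.0 CPM in PBS males. In females every collagen domain library lay above every PBS library for Syndig1l, and in males they overlapped. Over all genes tested, 2.93% were higher in every collagen domain female library than in every PBS female library, and Syndig1l was the only member among them.

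**Figure D1:**
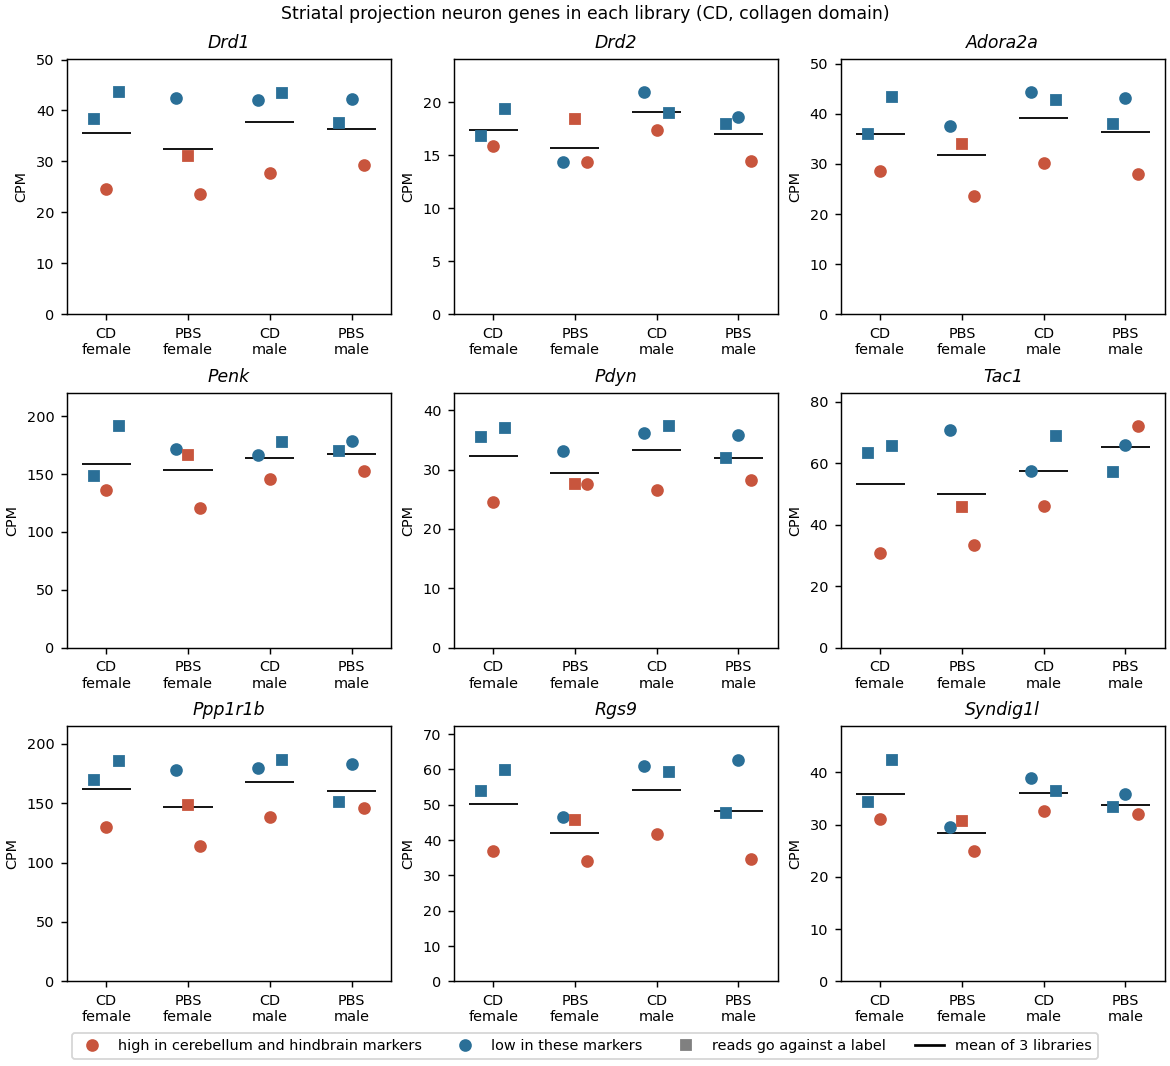
Level of each gene in CPM (vertical axis, from 0) in the 12 libraries by labelled group, with the mean of 3 libraries as a line; red points are high in cerebellum and hindbrain markers, blue points are low, and squares mark libraries whose reads go against a label. Red points lie at the bottom of most groups, as for Drd1 with 23.6 to 31.1 CPM in red and 37.6 to 43.5 CPM in blue, while the groups themselves overlap.

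None of the 9 genes passed the test for treatment in both sexes (edgeR's quasi-likelihood test, Benjamini-Hochberg adjusted p under 0.05). The background was the same, since 0.0% of the 19145 genes passed in this comparison, and 1.85% had an unadjusted p under 0.05. Syndig1l was the only member with an unadjusted p under 0.05, with a log2 fold change of 0.22 (SE 0.0898, 95% interval 0.02 to 0.41, unadjusted p 0.0313 and adjusted p 1 in edgeR's test). For Drd1 the log2 fold change was 0.09 (SE 0.179, interval -0.30 to 0.48). For Drd2 it was 0.16 (SE 0.0910, interval -0.04 to 0.35), and for Adora2a 0.14 (SE 0.152, interval -0.19 to 0.47). These intervals leave room for differences of either sign. For Penk it was 0.01 (SE 0.104, interval -0.22 to 0.24), for Pdyn 0.10 (SE 0.117, interval -0.15 to 0.35) and for Tac1 -0.05 (SE 0.212, interval -0.51 to 0.42). Ppp1r1b had 0.10 (SE 0.123, interval -0.16 to 0.37) and Rgs9 0.21 (SE 0.163, interval -0.15 to 0.56). In all, 8 of 9 members were above 0 with a median of 0.10, against 9597 of 19145 genes tested and a median of 0.00. Over the 12 libraries 36 of 36 pairs of members correlated positively, with a median Pearson's r of 0.80. The members are thus not independent, and counts of members above 0, here and below, are a description with no test. The median of the members was 0.05 without collagen domain female 3, 0.06 without PBS female 3, and between 0.15 and 0.18 without collagen domain female 2, collagen domain male 2, PBS female 1 or PBS male 2 alone.

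Leaving out the 5 libraries against a label turned 6 of the 9 values round, and of the 7 libraries left, 2 of 3 collagen domain and 2 of 4 PBS libraries were high in hindbrain markers. Then 2 of 9 members were above 0 (Drd2 at 0.17 and Syndig1l at 0.11), and the median was -0.11. Drd1 stood at -0.20 (SE 0.258) and Tac1 at -0.57 (SE 0.253), and none of the 9 passed in edgeR's test. In the 7 libraries low in hindbrain markers, 7 of 9 members were above 0 with a median of 0.09, and the standard error of Drd1 was 0.0740 in place of 0.179. Drd2 stood at 0.21 (SE 0.0849) there and Syndig1l at 0.23 (SE 0.0939), with an adjusted p of 0.975 for both in edgeR's test. Of the 7 low libraries, collagen domain female 1, collagen domain female 3 and PBS male 1 went against the treatment label. Collagen domain male 3 went against its sex label. C1qtnf3 had 23 reads in collagen domain female 1, 8 in collagen domain female 3 and 2675 in PBS male 1. The smaller standard errors therefore do not make this a cleaner contrast of treatment. In the 5 libraries high in hindbrain markers, 4 of 9 members were above 0 with a median of -0.06. PBS female 2 among these went against both labels.

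**Figure D2:**
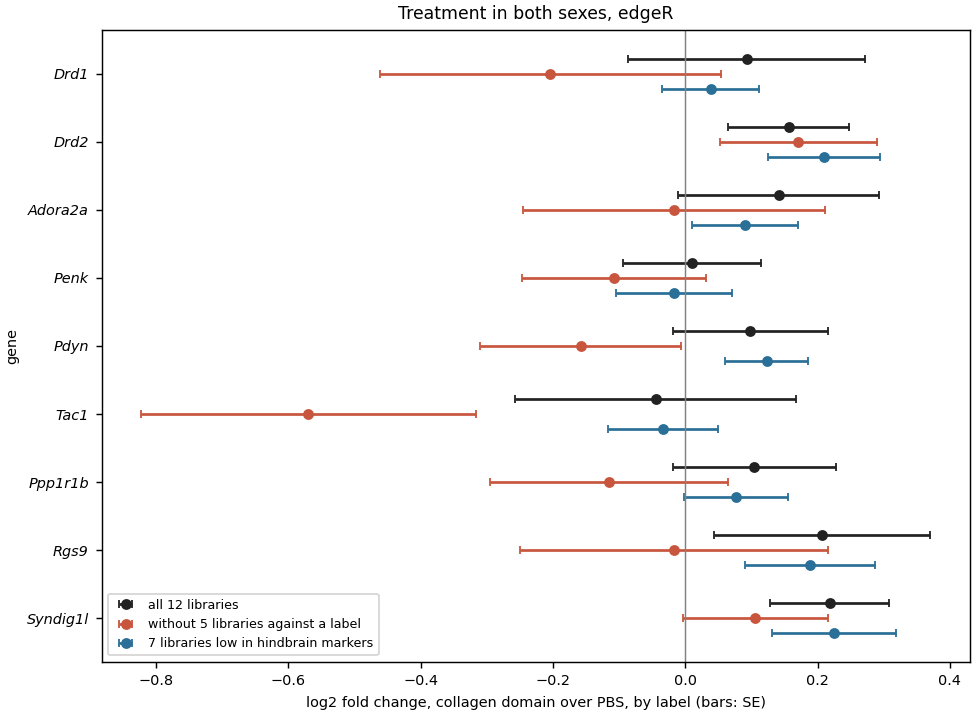
Log2 fold change of collagen domain over PBS, by label, for each gene (horizontal axis) with its SE as a bar, in edgeR's additive fit of sex and treatment; black is all 12 libraries, red leaves out the 5 whose reads go against a label, and blue holds the 7 low in hindbrain markers. Blue bars are shorter than black ones for every gene but Syndig1l (0.0939 in blue, 0.0898 in black), 8 of 9 black points lie above 0, and 2 of 9 red points do.

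Within females, none of the members passed and 0.0% of all genes did, with 1.46% of genes at an unadjusted p under 0.05 in edgeR's test. All 9 members were above 0 in females, with a median log2 fold change of 0.14 against -0.01 over all genes tested. Without PBS female 3 alone, 5 of 9 members were above 0 with a median of 0.004, and without collagen domain female 3 alone, 6 of 9 with a median of 0.03. Without collagen domain female 2 or PBS female 1 alone the median was 0.32. Syndig1l had 0.34 (SE 0.123, unadjusted p 0.0174, adjusted p 1 in edgeR's test), and the value without the libraries against a label was 0.18, where collagen domain females are a single library. Within males, 0.0% of genes passed, 1.7% had an unadjusted p under 0.05, and 7 of 9 members were above 0 with a median of 0.07. Without PBS male 3 alone, 3 of 9 were above 0 with a median of -0.03, without collagen domain male 3 alone, 4 of 9 with -0.01, and without collagen domain male 1 alone, 5 of 9 with 0.002. Without collagen domain male 2 or PBS male 2 alone the median was 0.20 or 0.18. Syndig1l had 0.09 in males (SE 0.123). The interaction of treatment and sex, the difference between males and females in the treatment's log2 fold change, passed for 0.0% of genes and had an unadjusted p under 0.05 for 1.37%. None of the 9 members was among these, and for Syndig1l the difference was -0.25 (SE 0.173, interval -0.63 to 0.13). Without the 5 libraries, the median of the members was -0.14 in females and -0.05 in males.

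Male against female libraries by label, all 9 members were above 0, with log2 differences between 0.08 (Pdyn) and 0.25 (Tac1, SE 0.213) and a median of 0.13, against -0.00 over all genes tested. None of them passed the test or had an unadjusted p under 0.05 (edgeR), where 0.0% of genes passed and 1.97% had an unadjusted p under 0.05. Of the 6 male libraries 2 were high in hindbrain markers, and of the 6 female libraries 3 were. Leaving out 1 library gave medians from 0.07 (without PBS male 2) to 0.20 (without collagen domain female 3), with 9 of 9 above 0 each time. In the 7 libraries low in these markers the median of the members was 0.02, with 7 of 9 above 0. Collagen domain female 1, collagen domain male 3 and PBS male 1 among them went against the sex label. Without the 5 libraries against a label the median of the members was 0.27, with 9 of 9 above 0. Of the females left, collagen domain female 2 and PBS female 3 were high in hindbrain markers and PBS female 1 was low. Of the males left, collagen domain male 2 and PBS male 3 were high, and collagen domain male 1 and PBS male 2 were low. The part of hindbrain tissue in these medians was not tested. Over the 8 cortical excitatory neuron markers the median log2 difference was -0.08, and over the 5 microglia markers it was 0.18; their part in the members' values was not tested. Tac1 stood at 0.76 in the libraries high in hindbrain markers, an alternative chosen after seeing the data, and at -0.10 in the low ones. The 2 male libraries of the high set were PBS male 3 at 72.1 CPM and collagen domain male 2 at 46.2 CPM. Its 3 female libraries had 30.7 to 45.8 CPM, and PBS female 2 among them went against the sex label.

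For most members the level differed between libraries high and low in cerebellum and hindbrain markers. Drd1 averaged 27.2 ± 3.12 CPM (SD, n = 5) in the libraries high in these markers and 41.4 ± 2.43 CPM (n = 7) in the low ones, a ratio of 0.658. Rgs9 averaged 38.7 ± 5.02 CPM in the high and 55.9 ± 6.58 CPM in the low libraries, a ratio of 0.692. Adora2a averaged 28.9 ± 3.77 CPM in the high and 40.7 ± 3.42 CPM in the low libraries. Pdyn averaged 26.9 ± 1.46 CPM in the high and 35.3 ± 2.03 CPM in the low libraries, and Ppp1r1b averaged 135 ± 14.1 CPM in the high and 176 ± 12.4 CPM in the low libraries. For these 5 of 9 members every library high in the markers lay below every low one, a pattern that 2.79% of all genes tested showed. The libraries were divided by measured marker levels and are no group of the study, so these values are a description with no test.

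The remaining 4 members overlapped between the sets. Penk averaged 144 ± 17.1 CPM in the high and 172 ± 13.4 CPM in the low libraries (ratio 0.839), and Syndig1l 30.3 ± 3.07 CPM in the high and 35.9 ± 4.15 CPM in the low libraries (0.844). Drd2 averaged 16.1 ± 1.77 CPM in the high and 18.1 ± 2.11 CPM in the low libraries, and its ratio of 0.888 was the nearest to 1 of the 9. Drd2 was at its lowest in PBS female 1, a library low in hindbrain markers that also had the highest mitochondrial share of the 12, at 9.87% of reads against 7.37% in the lowest. Tac1 averaged 45.6 ± 16.4 CPM in the high and 64.1 ± 5.27 CPM in the low libraries. Its spread among the high libraries came with PBS male 3, which at 72.1 CPM had the highest Tac1 of all 12. The part of mitochondrial share or of hindbrain tissue in these values was not tested.

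**Figure D3:**
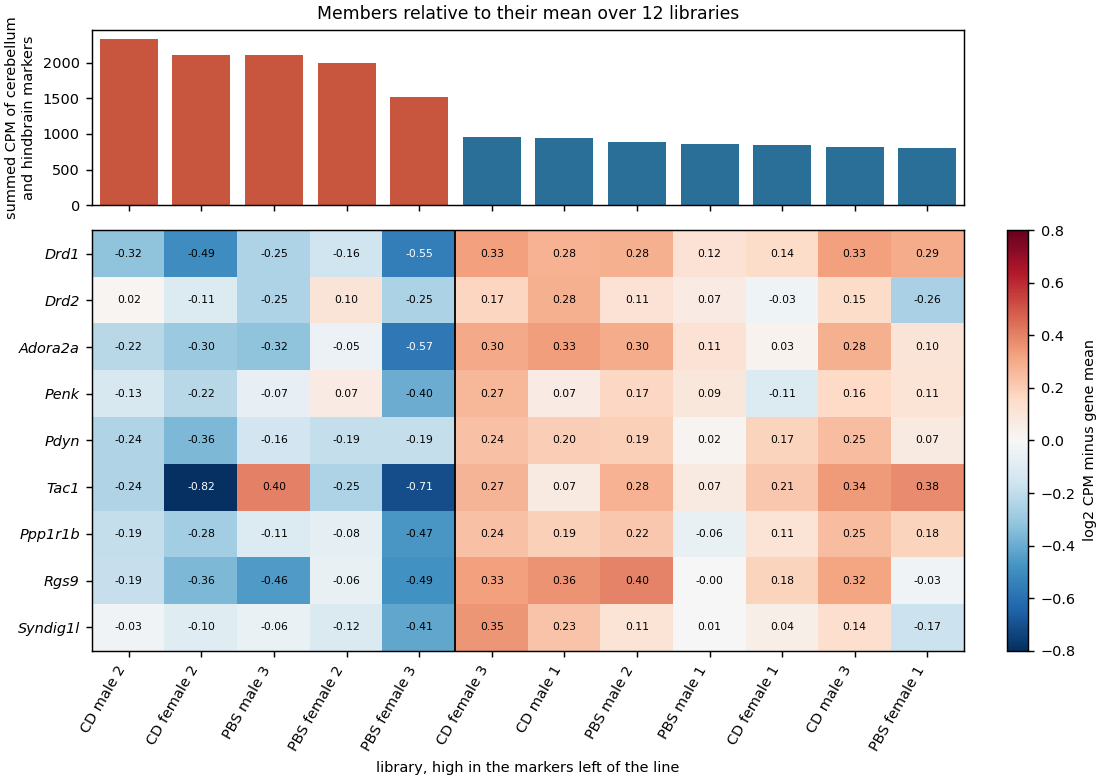
Top, summed CPM of 28 cerebellum and hindbrain markers in each library; bottom, log2 CPM of each gene minus its mean over the 12 libraries, with libraries ordered by the marker sum and those high in the markers left of the line. Drd1, Adora2a, Pdyn, Ppp1r1b and Rgs9 are lower in all 5 libraries on the left, while Tac1 is raised in PBS male 3 and Drd2 is low in PBS female 1.

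Most other genes of the same neurons were also lower in the libraries high in hindbrain markers. Of 22 other striatal projection neuron genes 21 were tested, 11 of which were lower in every library high in hindbrain markers, and their median ratio was 0.796. Genes named here for the hindbrain split were picked after their values were seen. Arpp21, a phosphoprotein gene regulated by cyclic AMP, averaged 341 ± 32.8 CPM in the high and 483 ± 33.9 CPM in the low libraries. Strip2 ran the other way with 85.5 ± 7.81 CPM in the high and 66.5 ± 4.04 CPM in the low libraries. Among 11 striatal transcription factor genes 4 were lower in every high library, and Ebf1, which other brain regions also express, was 2.60 times as high there. Of 15 tested dopamine receptor signalling genes 2 were lower and 1 was higher in every high library, and of 7 opioid and tachykinin receptor genes none was, with median ratios of 0.944 and 1.02.

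Marker lists of other tissue showed both directions. All 11 cerebellum markers and 11 of 14 hindbrain markers were higher in every library high in them, and 5.06% of all genes tested were higher in that way. The libraries were divided by the sum of these same markers, so these counts are no independent result. Of 8 cortical excitatory neuron markers 3 were lower in every such library, with a median ratio of 0.805, and olfactory bulb markers had a median ratio of 0.637. Astrocyte and oligodendrocyte markers had median ratios of 1.22 and 1.21, and microglia markers 0.980. Over the 10504 genes with a mean of 10 CPM or more the median ratio was 1 and the 5th percentile was 0.824, so that 6 of the 9 members lay below it. The members' coefficients of variation were 12.5% (Drd2) to 25.3% (Tac1) over the 12 libraries, where the median gene had 8.85%. In the 7 libraries low in hindbrain markers they were 5.76% (Pdyn) to 11.8% (Rgs9), where the median gene had 6.64%.

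Ratios between members within a library do not depend on library scaling. The log2 ratio of Drd2 to Drd1, which sets indirect-pathway against direct-pathway receptor reads, averaged -0.98 ± 0.262 in collagen domain and -1.05 ± 0.313 in PBS libraries (SD, n = 6 each). It was higher in the libraries high in hindbrain markers, at -0.76 ± 0.151, against -1.20 ± 0.179 in the low ones. Without the libraries against a label it was -0.77 ± 0.207 in 3 collagen domain and -1.12 ± 0.357 in 4 PBS libraries. PBS female 1 had the lowest Drd2 to Drd1 ratio, -1.57, and the highest Penk to Drd2 ratio, 3.59.

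The log2 ratio of Adora2a to Drd2, both genes of indirect-pathway neurons, averaged 1.03 ± 0.163 in collagen domain and 1.04 ± 0.244 in PBS libraries. It ran from 0.71 to 0.96 in the libraries high in hindbrain markers and from 1.08 to 1.40 in the low ones, so that the sets did not overlap. Dopamine neurons also express Drd2. The 6 dopamine neuron genes tested had a median ratio of 1.49 between high and low libraries, from 0.809 (Nr4a2) to 1.83 (Aldh1a1). The part of dopamine neurons in the ratios with Drd2 was not tested. The log2 ratio of Penk to Drd2 averaged 3.14 ± 0.112 in collagen domain and 3.29 ± 0.181 in PBS libraries. For the direct pathway, Tac1 to Drd1 averaged 0.58 ± 0.165 in collagen domain and 0.72 ± 0.295 in PBS libraries, with 1.30 in PBS male 3, and Pdyn to Drd1 averaged -0.14 ± 0.096 in collagen domain and -0.14 ± 0.205 in PBS libraries. Penk to Tac1, which sets one pathway's peptide against the other's, averaged 1.58 ± 0.318 in collagen domain and 1.51 ± 0.314 in PBS libraries. Without the libraries against a label, Penk to Drd2 averaged 3.056 ± 0.055 in 3 collagen domain and 3.332 ± 0.217 in 4 PBS libraries. Tac1 to Drd1 averaged 0.501 ± 0.212 and 0.795 ± 0.353 there, and Penk to Tac1 1.784 ± 0.325 and 1.415 ± 0.331. Adora2a to Drd2 averaged 0.910 ± 0.152 and 1.072 ± 0.299, and Pdyn to Drd1 -0.096 ± 0.112 and -0.105 ± 0.255. For each of these 6 ratios the treatments' ranges overlapped, with and without the libraries against a label.

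**Figure D4:**
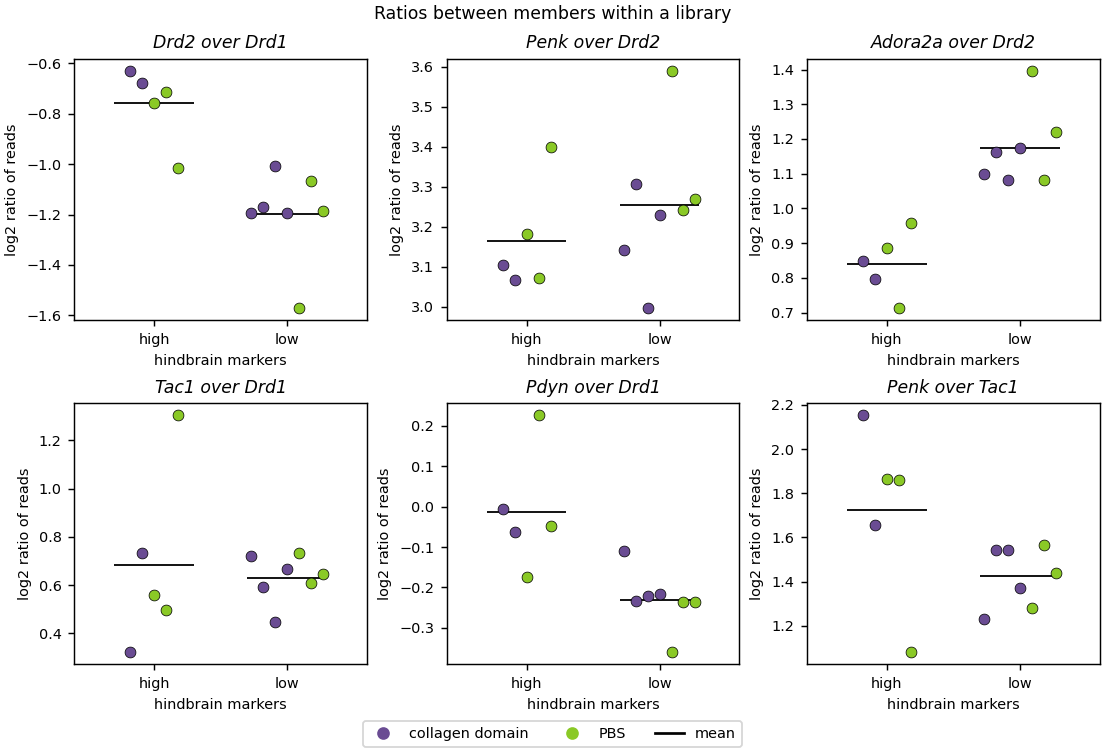
Log2 ratio of reads between pairs of genes in each library (vertical axis), with libraries high in cerebellum and hindbrain markers left and low ones right of each panel, coloured by labelled treatment, and the mean as a line. Adora2a over Drd2 does not overlap between the sets (0.71 to 0.96 and 1.08 to 1.40), and PBS male 3 stands apart at 1.30 for Tac1 over Drd1.

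Among the members, no pair passed an adjusted test of correlation over the 7 libraries low in hindbrain markers. Pearson's r of log2 CPM was positive in 33 of 36 pairs, with a median of 0.62, and 9 pairs had an unadjusted exact permutation p under 0.05. Pairs of other genes were not counted, so these numbers have no background and are not read as particular to the members. Drd1 and Ppp1r1b had the highest value, r = 0.92 and Spearman's rho = 0.86 (n = 7, exact two-sided permutation p = 0.00179, adjusted over 36 pairs 0.0643), and r was 0.81 without the 2 libraries farthest from the median of Drd1. The lowest was Drd2 with Tac1, at r = -0.51 (n = 7, exact permutation p = 0.235). For this pair r was 0.50 without the 2 libraries farthest from the median of Drd2. Drd1 with Drd2 had r = 0.21 (n = 7, exact permutation p = 0.657).

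The genes whose pattern over the 12 libraries was most like the mean pattern of the 9 were named by their root-mean-square distance from it in centred log2 CPM, among 15474 genes with a mean of at least 1 CPM. Cd4 was the nearest at 0.0685, followed by Actn2 at 0.0869, Serpina9 at 0.0890 and Slc35d3 at 0.0905. Rarb, a retinoic acid receptor gene, was at 0.0934, Lrrc10b at 0.0953, Rem2 at 0.0959 and Rxrg at 0.0966. The mean pattern itself had a root-mean-square size of 0.228, and it was lowest in PBS female 3 (-0.45) and highest in collagen domain female 3 (0.28). Among the members, Ppp1r1b was the nearest to it at 0.0508 and Tac1 the farthest at 0.254. Cd4 encodes a T-cell surface receptor and was listed here among striatal genes, and it had a mean of 7.65 CPM.

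In the comparison of treatments, none of the other genes of the pathway passed in either direction (edgeR, adjusted p under 0.05). Of 21 other striatal projection neuron genes tested, 16 were above 0 with a median log2 fold change of 0.07, and the smallest p belonged to the dopamine receptor gene Drd3, at 0.29 (SE 0.209). Of 11 striatal transcription factor genes 8 were above 0 with a median of 0.03, with Isl1, a factor of direct-pathway and cholinergic neurons, at 0.25 (SE 0.178). Of 15 dopamine receptor signalling genes 9 were above 0 with a median of 0.01, with the dopamine receptor gene Drd5, which had the smallest p, at -0.19 (SE 0.152) and the adenylyl cyclase gene Adcy5 at 0.14 (SE 0.115). Of 7 opioid and tachykinin receptor genes 5 were above 0 with a median of 0.08, with the delta opioid receptor gene Oprd1 at 0.23 (SE 0.143).

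Of 3 tested precursor genes of the same peptide families 2 were above 0. Pomc, the precursor of the endorphins, had 0.79 (SE 0.348, unadjusted p 0.0432, adjusted p 1 in edgeR's test). Of 7 neuropeptide processing genes 3 were above 0 with a median of -0.01, with the prohormone convertase gene Pcsk1 at 0.13 (SE 0.0645). Of 6 tested dopamine neuron genes 1 was above 0 with a median of -0.13, with the dopamine transporter gene Slc6a3 at -0.60 (SE 0.601). Of 6 cholinergic neuron markers 4 were above 0 with a median of 0.13.

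Markers of other tissue differed between the treatments by label as well, none past the threshold. The median log2 fold change was 0.41 over 9 hypothalamus markers and 0.37 over 6 choroid plexus markers, all above 0, and -0.11 over 11 cerebellum and -0.25 over 14 hindbrain markers. The summed level of the hypothalamus markers was 46.4 to 127 CPM in collagen domain and 34.1 to 67.7 CPM in PBS libraries, and none of them was at 0 over all libraries. The value of 127 CPM was that of collagen domain male 3, which went against its sex label. Without the libraries against a label the sums were 46.4 to 63.5 CPM in collagen domain and 50.3 to 67.7 CPM in PBS libraries. That of the choroid plexus markers was 361 to 949 CPM in collagen domain and 357 to 733 CPM in PBS libraries. Without the libraries against a label it was 361 to 771 CPM in collagen domain and 357 to 733 CPM in PBS libraries. Of 5 endothelial cell markers 4 were above 0 with a median of 0.16, and Cldn5, a tight junction gene, had 0.23 (SE 0.0720, unadjusted p 0.00674, adjusted p 1 in edgeR's test). Their summed level was 126 to 159 CPM in collagen domain and 114 to 162 CPM in PBS libraries. Without the libraries against a label it was 130 to 159 CPM in collagen domain and 114 to 133 CPM in PBS libraries. The part of these tissues and cells in the members' values was not tested.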

How the data were processed

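The authors deposited 1 table of raw counts, whole numbers for each Ensembl gene ID and library. Per the labels' protocols, RNA from frozen pulverised forebrain was purified with TRIzol and a column with DNase, made into TruSeq version 2 libraries without strand, and read as 75 bp pairs on a NextSeq instrument. STAR, DESeq2 and GRCm39 are named per the submitters' processing notes, without role or version; the counting tool and annotation are not given in the sources used here.

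Of the IDs, 42462 matched a symbol of GENCODE M21. Counts were filtered (filterByExpr), scaled by TMM and tested with edgeR 4.0.16 in R 4.3.3, two-sided, with Benjamini-Hochberg adjustment over all 19145 genes: an additive fit of sex and treatment, and a 4-group fit for each sex and the interaction. The standard error is the log2 fold change divided by the root of F. The fits were tested on simulated data. CPM are TMM-scaled, with a prior count of 2 on the log2 scale. DESeq2 1.42.0, other scalings, filters and sets of libraries were alternatives, described in the closing section. Libraries were divided at the largest gap of the log2 summed CPM of 28 markers, which is a measure of tissue, not of outcome. Intervals cover the spread between libraries.

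Named genes were all 9 members, up to 4 genes of smallest p for treatment per list, and the 8 nearest in pattern. The members, lists, markers and alternatives were chosen with earlier results of these data known.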

Additional observations from a re-analysis of the deposited data

Results flagged for a closer look

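The log2 ratio of Tac1 to Drd1 in PBS male 3 was 1.304, far from the other 5 PBS libraries, whose highest value was 0.735. PBS male 3 was 1 of the 5 libraries high in cerebellum and hindbrain markers. Of 30 sets of 6 libraries tested for such a gap, 1 was flagged, and chance flags about 1 in 20.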

How the results depend on the processing

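No member passed the adjusted threshold under any alternative for treatment in both sexes or male against female, nor did Syndig1l within each sex. The other members within each sex, and the interaction, were not part of this check. In edgeR's test of all 12 libraries 0 genes passed in each comparison, and this count moved as follows. Without the 4 libraries against their treatment label, and without the 5 against either label, 2 and 2 genes passed for treatment in both sexes, 1 and 1 in females, 1 and 1 in males, and 1 and 8 for male against female. In both cases collagen domain females are the single library collagen domain female 2, assumed to vary like the other groups. DESeq2 called 3 genes for treatment in males, 1 for the interaction and 8 for male against female. The libraries low in hindbrain markers alone gave 4 genes for male against female and the high ones alone, an alternative chosen after seeing the data, gave 1. Leaving out 1 library at a time gave 0 to 1 genes in males (1 without collagen domain female 3) and 0 to 5 for male against female (5 without PBS male 3). The block of replicate numbers gave 0 calls in all 5 comparisons; same-numbered libraries correlated at -0.384 to 0.572, with 7 of 18 pairs over 0.1, so the numbers were not taken to pair the libraries.

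For treatment in both sexes, values of the other sign were -0.096, -0.204 and -0.134 for Drd1, -0.047, -0.108 and -0.085 for Penk, -0.071, -0.158 and -0.15 for Pdyn and -0.039, -0.116 and -0.059 for Ppp1r1b (without the 4, without the 5, and in the high libraries alone). Without the 5, Adora2a and Rgs9 each stood at -0.017. Penk stood at -0.002 with the summed hindbrain markers as a covariate and at -0.017 in the low libraries. Leaving out 1 library gave -0.064 to 0.049 for Penk and -0.159 to 0.087 for Tac1. For male against female, Drd2 and Rgs9 stood at -0.035 and -0.025 in the high libraries, and Tac1 and Ppp1r1b at -0.098 and -0.012 in the low ones. For treatment in both sexes, male against female and Syndig1l within each sex, 28 of 418 member values had the other sign. Other members within each sex and the interaction are outside this count. Of all 9 members, those above 0 in females went from 9 to 2 without the 4 and to 2 without the 5. In males they went from 7 to 7 and 4, and for the interaction from 1 to 8 and 8. The cause was not tested. The count of correlated pairs was 30 of 36 over all 12 libraries, which pools the 2 sets divided by hindbrain markers. Pairs of other genes were not counted there either. In the comparisons counted, Syndig1l kept its sign under every alternative run, at 0.09 to 0.262 for treatment in both sexes. Leaving out 1 library gave medians of the members of 0.051 to 0.182 for treatment in both sexes, 0.004 to 0.324 in females, -0.028 to 0.199 in males, -0.243 to 0.064 for the interaction and 0.069 to 0.204 for male against female. The median of the members in females was -0.127 and -0.136, and for the interaction 0.239, without the 4 and without the 5, and without the 4.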
